A study of Mus musculus with 26 samples.

Results

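Described here are 10 genes of transcription regulators: the C/EBP factors Cebpa, Cebpb, Cebpd and Cebpg, and the regulators Nfil3, Bcl6, Sbno2, Maff, Maf and Etv3. Each member was taken as every probe set annotated to its symbol and to no other. This gave 10 probe sets, 1 for each of the 10 genes, of 35556 probe sets on the array and 19938 genes tested, and no probe set was shared with another symbol. They were followed in 26 Affymetrix Mouse Gene arrays of murine Ba/F3/gp130 cells, a pro-B cell line that lives on IL-3 or Hyper-IL-6 (a fusion of IL-6 with its soluble receptor) and that carries gp130, the signalling chain shared by IL-6 type cytokines.

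C/EBP proteins are basic leucine zipper (bZIP) factors that bind DNA as dimers. CEBPA drives granulocyte differentiation, CEBPB and CEBPD rise in inflammation and in the acute phase response, and CEBPG, which lacks a strong activation domain, mainly acts as a dimer partner. STAT3, the main signal of IL-22 and of gp130, is a known inducer of Cebpd, Bcl6, Nfil3, Sbno2 and Etv3 in several cell types, among them macrophages given IL-10.

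The cells with natural receptors carried both chains that bind IL-22, IL-22Rα1 and IL-10R2. They received IL-22 (4 arrays, numbered 1, 2, 3 and 5 in the titles) or were left untreated (4 arrays, numbered 2, 3, 4 and 5). The cells with synthetic receptors carried these chains with a nanobody as the outer part, GFPVHH on IL-22Rα1 and mCherryVHH on IL-10R2. They received a GFP-mCherry fusion, which can join both chains (6 arrays), mCherry-Fc, which has the IL-10R2 chain alone to bind (6 arrays), or nothing (6 arrays). All cells had been washed and starved without serum for 4 h, and each protein was given at 100 ng/ml for 2 h. No group received a control protein, so adding protein and joining receptor chains cannot be told apart. The labels do not say whether a receptor line is 1 clone, nor whether arrays of a group came from separate cultures, so p-values measure the spread between these arrays, which may be technical.

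Arrays of a group correlated at 0.981 to 0.994 across probe sets, and no pair held identical values. Socs3, the feedback inhibitor that STAT3 induces, rose by 4.30 (log2) with IL-22, by 1.02 with GFP-mCherry and by 0.94 with mCherry-Fc. Of 13 measured B lineage markers, 3 (Cd79a, Cd79b and Vpreb2) stood above the median gene in every group. Pax5, Ebf1, Rag1, Rag2, Dntt and Il7r stood below it, although the cells are labelled as pro-B. Natural receptor arrays numbered 4 and 5 stood apart from those numbered 1 to 3 in both natural groups. Over 8 myeloid markers their mean log2 intensity was 8.05 to 8.23, against 6.86 to 6.98 on the other 5 natural arrays and 6.20 to 6.53 on the 18 synthetic arrays. Itgam (11.73 to 12.05 against 8.73 to 8.98), Mpo (10.62 to 11.00 against 6.97 to 7.19) and Lyz2 (7.53 to 8.21 against 5.11 to 5.24) separated the natural ranges, and Csf1r did so by less. Spi1, Cd14, Elane and Csf3r overlapped. For this reason member results on natural cells are also given without those 3 arrays where their call or order changed, and the part of this difference in the results was not tested further.

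STAT dimers bind a palindrome whose outer letters are TTC and GAA. The 3 members with a RefSeq promoter that rose by at least 1 (log2) with IL-22 were Sbno2, Nfil3 and Bcl6, and their promoters are shown because those genes answered IL-22 by the widest margins. The windows run from 250 bases before to 50 bases after each RefSeq transcript start (GRCm38.p6), 5′ to 3′ on the gene's strand. All 6 windows lie on the minus strand. The arrays do not say which start was used. In the Sbno2 starts 1 and 2 and both Bcl6 starts, capitals mark the STAT pattern TTCNNNGAA. Capitals mark the NF-kB pattern in Sbno2 start 3 and the CRE core TGACG in Nfil3, which reads CGTCA there because it lies on the opposite strand, and neither window held a STAT pattern.
Sbno2 start 1, chr10:80102653-80102952: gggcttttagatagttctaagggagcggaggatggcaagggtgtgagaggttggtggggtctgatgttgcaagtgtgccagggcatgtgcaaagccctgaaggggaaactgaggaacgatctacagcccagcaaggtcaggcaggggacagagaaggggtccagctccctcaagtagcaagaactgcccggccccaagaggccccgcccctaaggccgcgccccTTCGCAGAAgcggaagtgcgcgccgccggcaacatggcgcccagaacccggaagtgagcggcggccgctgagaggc
Sbno2 start 2, chr10:80101138-80101437: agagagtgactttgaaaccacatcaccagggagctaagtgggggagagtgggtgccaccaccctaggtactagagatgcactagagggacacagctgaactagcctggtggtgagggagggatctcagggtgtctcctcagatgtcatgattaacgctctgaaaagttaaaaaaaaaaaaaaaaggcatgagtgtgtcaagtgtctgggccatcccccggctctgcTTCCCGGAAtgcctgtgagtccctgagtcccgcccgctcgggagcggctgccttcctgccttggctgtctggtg
Sbno2 start 3, chr10:80075390-80075689: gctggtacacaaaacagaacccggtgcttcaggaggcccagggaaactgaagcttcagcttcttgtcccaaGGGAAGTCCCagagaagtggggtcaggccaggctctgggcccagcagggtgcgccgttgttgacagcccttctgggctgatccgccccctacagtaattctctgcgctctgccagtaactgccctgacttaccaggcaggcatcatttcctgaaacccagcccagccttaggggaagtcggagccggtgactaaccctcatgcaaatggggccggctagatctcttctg
Bcl6 start 1, chr16:23988803-23989102: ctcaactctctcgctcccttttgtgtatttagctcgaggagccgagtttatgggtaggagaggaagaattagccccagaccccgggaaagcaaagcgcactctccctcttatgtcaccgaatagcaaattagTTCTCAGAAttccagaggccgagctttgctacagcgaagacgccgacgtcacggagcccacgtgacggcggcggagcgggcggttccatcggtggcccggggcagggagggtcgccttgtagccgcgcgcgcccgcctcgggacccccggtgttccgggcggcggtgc
Bcl6 start 2, chr16:23981234-23981533: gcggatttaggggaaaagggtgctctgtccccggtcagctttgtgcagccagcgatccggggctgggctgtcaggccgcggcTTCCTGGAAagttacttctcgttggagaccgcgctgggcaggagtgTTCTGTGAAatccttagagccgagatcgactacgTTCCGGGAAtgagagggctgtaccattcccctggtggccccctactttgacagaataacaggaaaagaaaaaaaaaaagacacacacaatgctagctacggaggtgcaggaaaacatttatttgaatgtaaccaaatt
Nfil3, chr13:52980990-52981289: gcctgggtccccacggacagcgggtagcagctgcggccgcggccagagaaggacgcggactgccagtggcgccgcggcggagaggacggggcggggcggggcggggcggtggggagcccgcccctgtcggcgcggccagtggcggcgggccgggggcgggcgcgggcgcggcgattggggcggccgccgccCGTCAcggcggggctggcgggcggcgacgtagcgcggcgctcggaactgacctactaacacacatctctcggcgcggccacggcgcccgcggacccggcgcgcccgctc

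In all, 8 members had 13 promoter windows of 300 bases. The STAT pattern was found in 8.3% of 32841 RefSeq promoters of that length. It stood 26 bases before Sbno2 start 1, 24 before start 2, 118 before Bcl6 start 1, and 168, 122 and 88 before Bcl6 start 2, counted from the first transcript base to the first base of each match. The remaining match among the members lay 27 bases after the second of 3 Maff starts. None was found in Sbno2 start 3, in the other Maff windows, or in those of Nfil3, Etv3, Cebpb, Cebpa or Cebpg. The NF-kB pattern (8.46% of promoters) occurred in Sbno2 start 3 and Maff start 3, and the C/EBP pattern TTGCNNAA (10.8%) in Maff start 1. The AP-1 pattern TGANTCA (7.81%) occurred in none of the 13. The CRE core TGACG, a part of the cyclic AMP response element found in 20.8% of promoters, occurred 3 times in Cebpb, 2 times in Bcl6 start 1, 2 times in Maff start 2 and once each in Etv3, Nfil3 and Maff start 3. Both strands were searched. Apart from the pair of CRE cores in Maff start 2, which overlap, no matches overlapped.

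**Figure D1:**
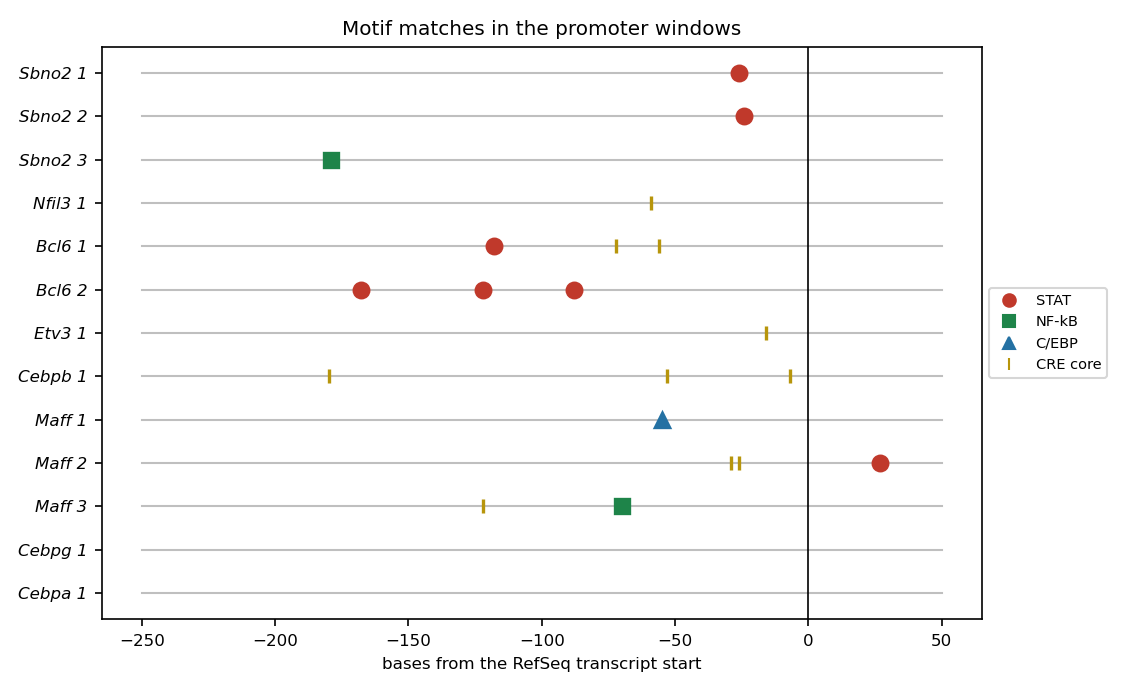
Motif matches in the 13 promoter windows of 8 members; the x axis is distance in bases from the RefSeq transcript start (0), each grey line is 1 window from 250 bases before to 50 after, and symbols mark the first base of a match by motif. STAT matches lie within 168 bases before the start in Sbno2 starts 1 and 2 and both Bcl6 starts, and 27 bases after it in Maff start 2.

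With IL-22, 8 of the 10 genes passed the test, limma's moderated test with Benjamini-Hochberg adjustment over all genes at 0.05, where 11.4% of all 19938 genes did. 7 rose (5.39% of all genes) and Cebpa fell (6.03% of all genes fell). 4 rose by at least 1 on the log2 scale, which 0.868% of all genes did. The median difference of the members was 0.67, against -0.024 for all genes. In 8 of the 10 the IL-22 and untreated arrays did not overlap, as in 11.4% of all genes. Because whole cultures were measured, fewer cells with a transcript and less of it per cell cannot be told apart.

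Sbno2, a helicase-like corepressor that acts downstream of IL-10 in macrophages, changed by the widest margin of the 10. Its log2 intensity was 11.25, 11.28, 11.25 and 10.89 on IL-22 arrays 1, 2, 3 and 5, against 8.37, 8.39, 8.27 and 8.40 on untreated arrays 2, 3, 4 and 5. Every IL-22 array stood far above every untreated one, and IL-22 array 5 was the lowest of its group. The difference was 2.81 (SE 0.072, adjusted p = 1.54e-21), a 7.01-fold rise and the 9th largest of all genes.

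Nfil3 encodes E4BP4, a bZIP repressor that IL-3 keeps up in pro-B cells and that is needed for NK cell development. It measured 10.79, 10.90, 10.80 and 11.07 with IL-22, against 8.32, 8.39, 9.28 and 9.69 untreated. The IL-22 arrays agreed closely, while untreated arrays 4 and 5 stood about 1 log2 unit above untreated arrays 2 and 3. The groups did not overlap, and Nfil3 rose by 1.97 (SE 0.18, adjusted p = 1.82e-09). This SE pools the spread of all 5 groups. The SD of Nfil3 was 0.13 with IL-22 and 0.67 untreated, so the SE understates the spread of the arrays compared. The call held under every alternative, among them a fit of only these groups. When natural arrays 4 and 5 were left out, the rise was 2.48 (adjusted p = 1.19e-15).

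Bcl6 encodes a zinc finger repressor of germinal centre B cells. It measured 7.48, 7.97, 7.54 and 6.32 with IL-22 and 6.12, 5.91, 5.62 and 5.72 untreated. IL-22 array 5 lay more than 1 log2 unit below the other IL-22 arrays, yet above every untreated array. The SD of Bcl6 was 0.70 with IL-22 and 0.22 untreated, a spread that an SE pooled over all groups understates. Bcl6 rose by 1.49 (SE 0.20, adjusted p = 4.13e-06). Without natural arrays 4 and 5 it rose by 1.65, and within those arrays, 1 with IL-22 and 2 untreated, the difference was 0.66 (adjusted p = 0.146). Such fits within numbers 4 and 5 assume that the lone IL-22 array varies like the other groups. The deposited table used here has no detection calls, and Bcl6 in untreated cells lay below the median gene mean of 6.53. Maf in the synthetic groups (means of 6.32 to 6.50) and Cebpd in untreated synthetic cells (6.32) lay below it too. Whether these genes stood above array background there was not tested.

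Cebpd measured 8.26, 8.28, 8.28 and 8.39 with IL-22 and 6.86, 6.90, 6.87 and 7.13 untreated. Array 5 was the highest of both groups, and the groups were far apart. Cebpd rose by 1.36 (SE 0.096, adjusted p = 1.33e-11), or 2.57-fold, and by 1.39 without natural arrays 4 and 5. Cebpb, its relative, measured 8.66, 8.50, 8.43 and 8.42 with IL-22 against 7.79, 7.93, 7.85 and 8.09 untreated. The groups did not overlap and Cebpb rose by 0.59 (SE 0.095, adjusted p = 4.82e-05). Within arrays 4 and 5 it was 0.45 (adjusted p = 0.171).

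Etv3, an ETS family repressor, measured 9.57, 9.66, 9.51 and 9.42 with IL-22 and 8.74, 8.90, 8.68 and 8.83 untreated. These groups were separate and tight, and Etv3 rose by 0.75 (SE 0.058, adjusted p = 8.12e-11). Maff is a small MAF protein, a bZIP factor with no activation domain. It measured 7.35, 7.41, 7.21 and 7.14 with IL-22 and 6.59, 6.47, 6.85 and 6.89 untreated, again without overlap. Its rise was 0.58 (SE 0.14, adjusted p = 0.00351). It was 0.79 without natural arrays 4 and 5, and within them 0.27 (adjusted p = 0.5).

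Cebpa ran the other way. It measured 7.48, 7.45, 7.58 and 7.27 with IL-22 and 7.59, 7.93, 7.88 and 7.97 untreated. The highest IL-22 array lay only just under the lowest untreated one. Cebpa fell by 0.40 on the log2 scale (SE 0.091, adjusted p = 0.00277), but without natural arrays 4 and 5 the difference was -0.26 (adjusted p = 0.165), past the threshold no longer. Within arrays 4 and 5 it was -0.66 (adjusted p = 0.0037).

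Cebpg and Maf did not pass. Cebpg measured 8.23, 8.43, 8.35 and 8.23 with IL-22 and 8.41, 8.32, 8.01 and 7.97 untreated, with overlap and a difference of 0.13 (SE 0.087, adjusted p = 0.443). Its untreated arrays 4 and 5 were the low ones, and without natural arrays 4 and 5 the difference was -0.026. Maf, the large MAF factor c-MAF, measured 6.60, 6.49, 6.52 and 6.55 with IL-22 and 6.68, 6.70, 6.71 and 6.41 untreated, a difference of -0.086 (SE 0.084, adjusted p = 0.673).

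**Figure D2:**
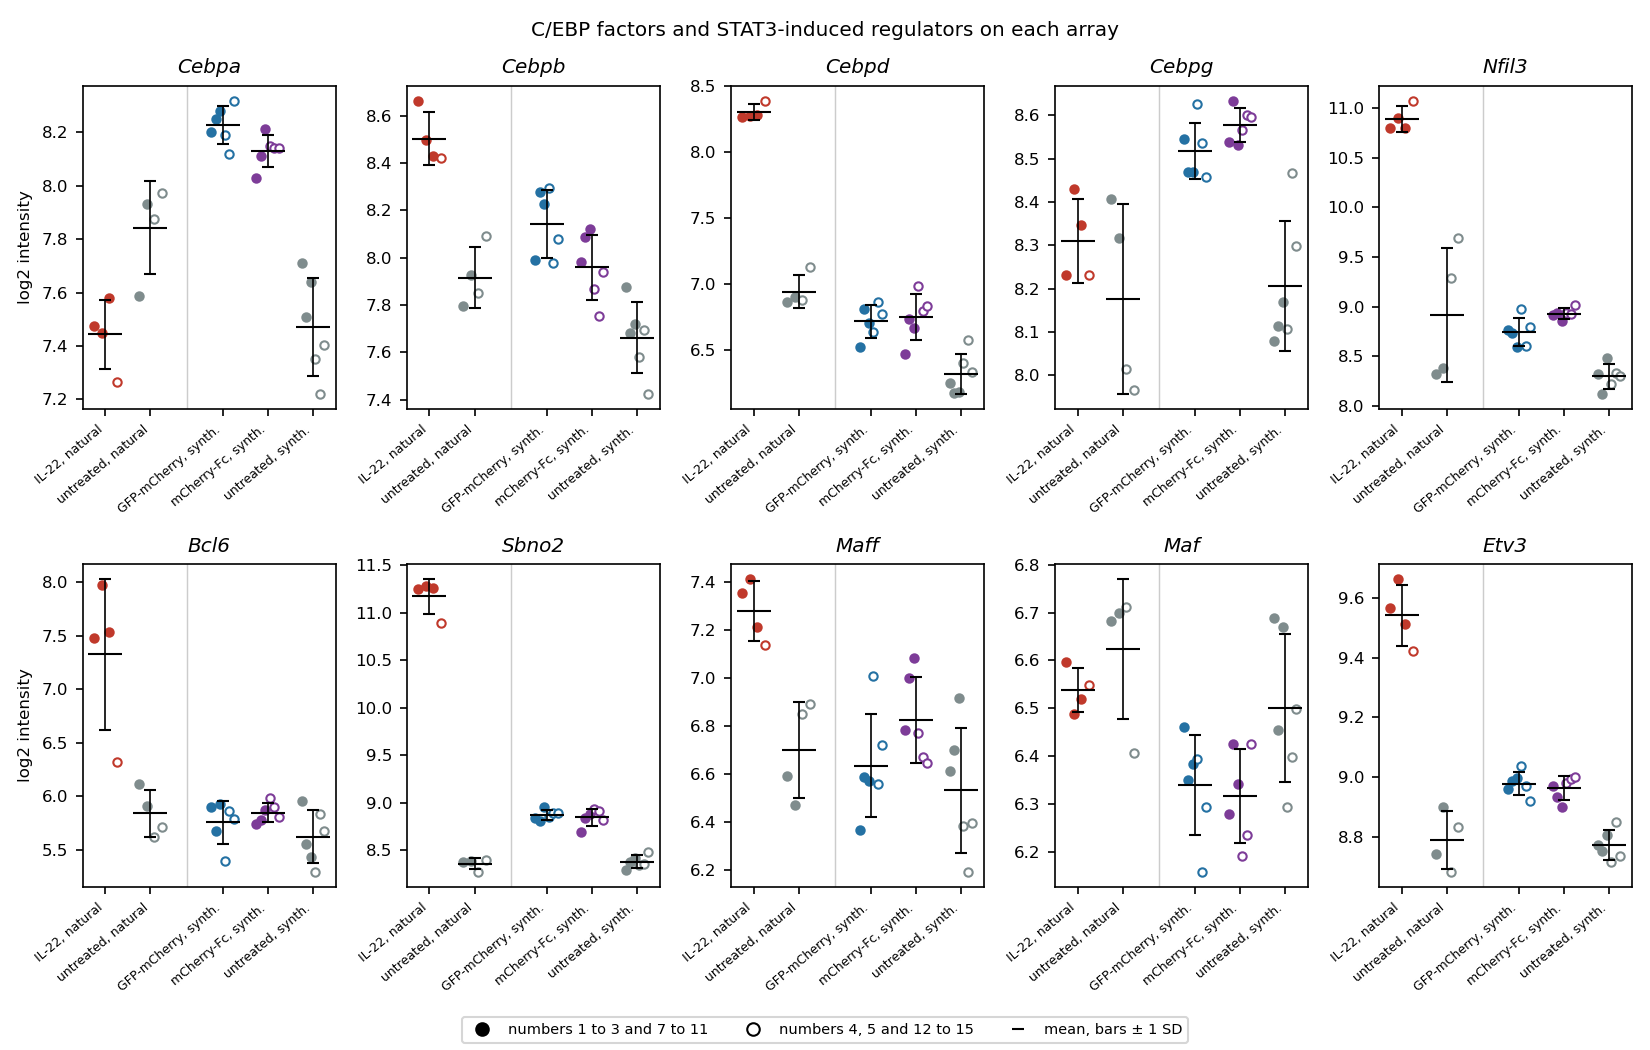
Log2 intensity (y axis, a separate scale per gene) of the 10 genes on each of the 26 arrays, by group; filled points are arrays numbered 1 to 3 or 7 to 11, open points those numbered 4, 5 or 12 to 15, and black marks give the mean ± 1 SD. Sbno2, Nfil3, Cebpd, Etv3, Bcl6, Cebpb and Maff stood above all other groups in the IL-22 group. Cebpa was low there and in untreated synthetic cells and high in the GFP-mCherry and mCherry-Fc groups.

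**Figure D3:**
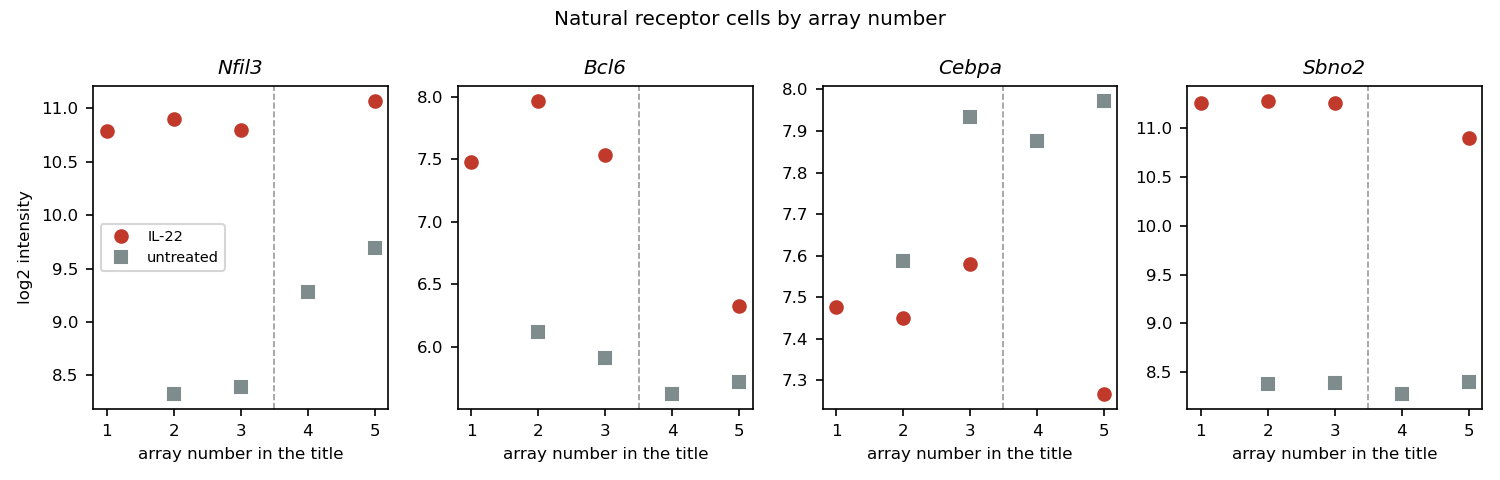
Log2 intensity (y axis) of Nfil3, Bcl6, Cebpa and Sbno2 in natural receptor cells by the array number in the title (x axis), red circles with IL-22 and grey squares untreated; the dashed line divides numbers 1 to 3 from 4 and 5. Untreated Nfil3 was 9.28 and 9.69 on arrays 4 and 5 but 8.32 and 8.39 on arrays 2 and 3, and Bcl6 with IL-22 was 6.32 on array 5.

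With GFP-mCherry, 7 of the 10 genes rose and 0 fell, where 26% of all genes passed, 14.2% upward and 11.8% downward. Cebpa rose the most. The members' median was 0.36, against -0.042 for all genes, and 0 rose by as much as 1, which 0.201% of all genes did. In 5 of the 10 (Cebpa, Cebpb, Nfil3, Sbno2 and Etv3) the groups did not overlap, as in 14.1% of all genes. When each array was centred on its median, the median of all genes moved by 0.102 and rises made up 88.5% of the calls over all genes, against 54.8% as deposited, while the number of members that rose was again 7.

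For groups of 6 arrays the lowest, median and highest values are given. Cebpa stood at 8.12, 8.23 and 8.32 with GFP-mCherry, against 7.22, 7.46 and 7.71 untreated. The groups were well apart, and the untreated arrays were the more spread. Cebpa rose by 0.76 (SE 0.074, adjusted p = 2.72e-08), or 1.69-fold. Cebpb stood at 7.98, 8.15 and 8.29 with GFP-mCherry and 7.42, 7.69 and 7.87 untreated. All treated arrays lay above all untreated ones, and the rise was 0.48 (SE 0.078, adjusted p = 4.16e-05).

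Cebpd stood at 6.52, 6.74 and 6.86 with GFP-mCherry and 6.17, 6.29 and 6.57 untreated. 1 treated array fell within the untreated range, and Cebpd rose by 0.40 (SE 0.079, adjusted p = 0.000426). Cebpg stood at 8.46, 8.50 and 8.63 and untreated at 8.08, 8.14 and 8.47. The groups met at the top of the untreated range, and Cebpg rose by 0.31 (SE 0.071, adjusted p = 0.00174). It was 0.25 (adjusted p = 0.0574) among arrays numbered 12 to 15.

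Sbno2 stood at 8.81, 8.87 and 8.95 with GFP-mCherry and 8.29, 8.37 and 8.48 untreated. The 2 narrow ranges were separate, and Sbno2 rose by 0.49 (SE 0.059, adjusted p = 5.96e-07), or 1.41-fold. Etv3 stood at 8.92, 8.98 and 9.04 with GFP-mCherry and 8.71, 8.76 and 8.85 untreated. Its ranges were separate too, and the rise was 0.21 (SE 0.047, adjusted p = 0.00188). Nfil3 stood at 8.60, 8.75 and 8.98 with GFP-mCherry and 8.12, 8.31 and 8.49 untreated. It rose by 0.45 (SE 0.14, adjusted p = 0.0228) without overlap. That call was lost without GFP-mCherry array 12 (adjusted p = 0.0571), without untreated array 9 (adjusted p = 0.0533) and after quantile normalization (adjusted p = 0.0857). It held in 21 of 24 alternatives. The SE is pooled over all groups, and the SD of Nfil3 was 0.14 with GFP-mCherry and 0.12 untreated, against 0.67 in untreated natural cells.

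The other 3 did not pass. Bcl6 stood at 5.39, 5.83 and 5.93 with GFP-mCherry and 5.29, 5.61 and 5.96 untreated, a difference of 0.13 (SE 0.17, adjusted p = 0.58). Maff stood at 6.37, 6.58 and 7.01 and untreated at 6.19, 6.50 and 6.92, a difference of 0.10 (SE 0.11, adjusted p = 0.518). For Maff the sign depended on the array numbers: -0.23 among numbers 7 to 11 (adjusted p = 0.0872) and 0.44 among 12 to 15 (adjusted p = 0.0104). Maf stood at 6.16, 6.37 and 6.46 with GFP-mCherry and 6.29, 6.48 and 6.69 untreated, a difference of -0.16 (SE 0.069, adjusted p = 0.0871). All 6 treated arrays of Maf lay under the untreated median. Maf passed once number range entered the fit as a batch term (adjusted p = 0.0424), but in only 3 of 24 alternatives. Over the 24, its difference ran from -0.21 to -0.058, with adjusted p up to 0.58.

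With mCherry-Fc, 8 of the 10 genes rose and Maf fell, where 26.9% of all genes passed, 14% upward and 13% downward. The members' median was 0.33, against -0.036 for all genes, and 0 rose by as much as 1, which 0.0602% of all genes did. In 5 of the 10 (Cebpa, Cebpg, Nfil3, Sbno2 and Etv3) the groups did not overlap, as in 11.3% of all genes. Centring each array moved the median of all genes by 0.106 and made rises 88.8% of the calls over all genes, against 51.9% as deposited, and under it 8 members passed, all of them rises. The untreated arrays are those of the GFP-mCherry comparison, so the 2 sets of differences share their controls.

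Among the C/EBP genes, Cebpa stood at 8.03, 8.14 and 8.21 with mCherry-Fc and rose by 0.66 (SE 0.074, adjusted p = 5.8e-07). The 6 arrays were tight and all above the untreated range of 7.22 to 7.71. Cebpg stood at 8.53, 8.58 and 8.63 with mCherry-Fc, just clear of the untreated range of 8.08 to 8.47, and rose by 0.37 (SE 0.071, adjusted p = 0.000401). Cebpd stood at 6.47, 6.76 and 6.99 with mCherry-Fc and rose by 0.43 (SE 0.079, adjusted p = 0.000273). Its lowest treated array lay inside the untreated range of 6.17 to 6.57. Cebpb stood at 7.75, 7.96 and 8.12 with mCherry-Fc and rose by 0.30 (SE 0.078, adjusted p = 0.00655). Here the groups overlapped, the untreated range being 7.42 to 7.87. The Cebpb call was lost in 2 of 24 alternatives, among them quantile normalization, where the difference was 0.24 (adjusted p = 0.0521).

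Nfil3 stood at 8.86, 8.93 and 9.02 with mCherry-Fc. All 6 arrays lay above the untreated range of 8.12 to 8.49, and Nfil3 rose by 0.63 (SE 0.14, adjusted p = 0.00221). Sbno2 stood at 8.70, 8.86 and 8.93 with mCherry-Fc and rose by 0.47 (SE 0.059, adjusted p = 2.85e-06), again clear of the untreated arrays. Etv3 stood at 8.90, 8.97 and 9.00 with mCherry-Fc and rose by 0.19 (SE 0.047, adjusted p = 0.00438). The Etv3 call was lost in 2 of 24 alternatives, among them quantile normalization, where the difference was 0.098 (adjusted p = 0.148).

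The calls on the MAF genes were close to the threshold. Maff stood at 6.65, 6.78 and 7.08 with mCherry-Fc and rose by 0.29 (SE 0.11, adjusted p = 0.049), with overlap. Maf stood at 6.19, 6.31 and 6.43 with mCherry-Fc and fell by 0.18 on the log2 scale (SE 0.069, adjusted p = 0.0478), with overlap. The Maf call was lost in 15 of 24 alternatives and the Maff call in 11 of 24. Over the 24, the Maf difference ran from -0.26 to -0.078, with adjusted p up to 0.453. Only mCherry-Fc arrays 9, 13 and 14 share a number with an untreated array. With the replicate number as a block, mCherry-Fc arrays 8, 10 and 15 therefore added nothing to the difference. Neither gene passed in that fit: 0.34 for Maff (adjusted p = 0.122) and -0.16 for Maf (adjusted p = 0.185). Fewer arrays and pairing cannot be told apart there. Either call also ended on leaving out single arrays. For Maff these were untreated array 7, 12, 13 or 14 or mCherry-Fc array 8, 9, 10 or 13 (adjusted p up to 0.112), and for Maf untreated array 7, 9, 11 or 14 or mCherry-Fc array 8, 10, 13 or 14 (adjusted p up to 0.136). Bcl6 stood at 5.75, 5.84 and 5.98 with mCherry-Fc, a difference of 0.22 (SE 0.17, adjusted p = 0.328) from untreated cells.

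**Figure D4:**
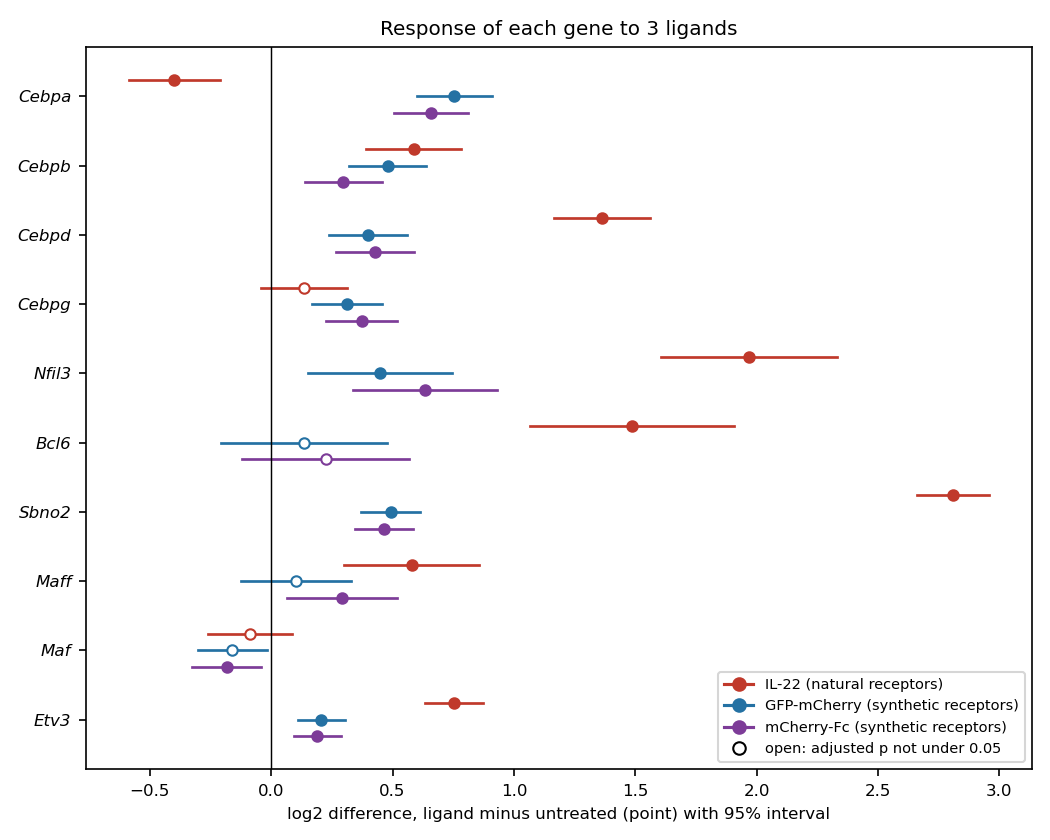
Log2 difference from untreated cells (x axis; point, with its 95% interval) of each of the 10 genes after IL-22 (red), GFP-mCherry (blue) and mCherry-Fc (purple); open points did not reach an adjusted p under 0.05. Sbno2 lay at 2.81 with IL-22 and at 0.49 and 0.47 with the synthetic ligands, while Cebpa lay at -0.40, 0.76 and 0.66.

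GFP-mCherry and mCherry-Fc differ in which receptor chains they can join, and none of the 10 genes differed between them by limma's test, where 1.09% of all genes did. 0.722% of all genes were higher with GFP-mCherry, 0.0903% by at least 1, and 0.371% were lower, and in 2.96% the groups did not overlap. Before adjustment, Cebpb was the 1 member with an interval that left out 0, and 1751 genes of the whole array had an unadjusted p under 0.05. Cebpb stood at 8.14 ± 0.14 with GFP-mCherry and 7.96 ± 0.14 with mCherry-Fc (mean ± SD, n = 6 each), a difference of 0.18 with a 95% interval of 0.023 to 0.34 and an adjusted p of 0.459. The other differences ran from -0.19 for Maff to 0.096 for Cebpa. The 95% intervals of all 10 lay between -0.48 and 0.34. For Cebpa the interval was -0.057 to 0.25, for Sbno2 -0.093 to 0.15 and for Nfil3 -0.48 to 0.11. Among arrays numbered 7 to 11 alone, Maff was lower with GFP-mCherry (-0.45, adjusted p = 0.03), and among 12 to 15 it was 0.066.

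The responses through synthetic and natural receptors were set against each other by testing the difference of the 2 differences. Ligand, receptor construct and cell line change together here and cannot be told apart. For GFP-mCherry against IL-22, 6 of 10 genes passed, where 13.6% of all genes did (9.23% with the more positive synthetic response and 4.4% with the more negative one), and for mCherry-Fc against IL-22 also 6, where 13.4% did (8.76% and 4.6%). The 2 tests share the IL-22, natural untreated and synthetic untreated arrays. Of the 6, only Cebpa had the more positive response through the synthetic receptors, by 1.15 (SE 0.12, adjusted p = 4.32e-08) with GFP-mCherry and 1.06 (SE 0.12, adjusted p = 2.09e-07) with mCherry-Fc. It rose through the synthetic receptors and fell with IL-22, although the fall did not pass without natural arrays 4 and 5. Without those arrays the Cebpa differences were still 1.01 (adjusted p = 4.86e-06) and 0.92 (adjusted p = 2.04e-05).

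Sbno2, Nfil3, Bcl6, Cebpd and Etv3 had the smaller response through the synthetic receptors. For Sbno2 the gap was -2.32 (SE 0.093, adjusted p = 2.08e-16) with GFP-mCherry and -2.35 (SE 0.093, adjusted p = 1.54e-16) with mCherry-Fc. For Nfil3 it was -1.52 (SE 0.23, adjusted p = 2.51e-05) and -1.34 (SE 0.23, adjusted p = 0.00016), in the same order of ligands. For Bcl6 it was -1.35 (SE 0.26, adjusted p = 0.000655) and -1.26 (SE 0.26, adjusted p = 0.00153). Bcl6 thus answered IL-22, but neither synthetic ligand moved it past the threshold, and the gap itself passed. Among natural arrays 4 and 5 and synthetic arrays 12 to 15 alone, the Bcl6 gaps did not pass (adjusted p = 0.249 and 0.517), and neither did the Etv3 gap with mCherry-Fc (-0.44, adjusted p = 0.0561). For Cebpd the gap was -0.96 (SE 0.12, adjusted p = 2.59e-06) with GFP-mCherry and -0.93 (SE 0.12, adjusted p = 4.78e-06) with mCherry-Fc. For Etv3 it was -0.55 (SE 0.075, adjusted p = 6.24e-06) and -0.56 (SE 0.075, adjusted p = 4.56e-06).

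Cebpb, Cebpg, Maff and Maf did not pass in either test. The Cebpb gap was -0.11 with GFP-mCherry, with a 95% interval of -0.36 to 0.15, and -0.29 with mCherry-Fc, with an interval of -0.54 to -0.037 and an adjusted p of 0.122. Without natural arrays 4 and 5, Cebpg passed in both (0.34, adjusted p = 0.0349, and 0.40, adjusted p = 0.013), the more positive response being the synthetic one, and Maff passed against GFP-mCherry (-0.69, adjusted p = 0.0194). With each array centred, positive differences made up 83.2% of the calls over all genes for GFP-mCherry, against 67.7% as deposited, and 82.8% for mCherry-Fc, against 65.6%. The members' counts under it were again 6 and 6.

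Before any ligand the 2 lines already differed in some of these genes. In untreated synthetic cells 4 of 10 genes were lower than in untreated natural cells and 0 were higher, where 15.2% of all genes differed, 6.62% downward. Cebpd measured 6.32 ± 0.15 (n = 6) in synthetic cells and 6.94 ± 0.13 (n = 4) in natural cells (mean ± SD), a difference of -0.62 (SE 0.088, adjusted p = 9.38e-06) with no overlap. It was the 1 member whose untreated groups did not overlap, as 10% of all genes did not. Cebpd was the only member to pass without natural arrays 4 and 5 (-0.56, adjusted p = 0.00108).

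Nfil3 measured 8.30 ± 0.12 in synthetic and 8.92 ± 0.67 in natural cells, a difference of -0.62 (SE 0.16, adjusted p = 0.00786). Natural arrays 4 and 5 were the high ones, and without them the difference was -0.057 (adjusted p = 0.826). Cebpa was lower by 0.37 (7.47 ± 0.18 in synthetic and 7.84 ± 0.17 in natural cells, adjusted p = 0.00236), and -0.29 without those arrays (adjusted p = 0.075). Cebpb differed by -0.25 (adjusted p = 0.0471), and by -0.20 without them (adjusted p = 0.336). The Cebpb call also ended without natural array 3, 4 or 5 alone, or without synthetic array 9, 11, 12, 13 or 14 (adjusted p up to 0.207), and the Nfil3 call without natural array 4 or 5 alone (up to 0.0744). Sbno2 stood at 8.38 ± 0.067 in synthetic and 8.36 ± 0.059 in natural cells, a difference of 0.021 with a 95% interval of -0.11 to 0.16. Cebpg had opposite signs in the number ranges, -0.24 (adjusted p = 0.04) between synthetic arrays 7 to 11 and natural arrays 1 to 3, and 0.30 (adjusted p = 0.0308) between the high numbers. Line and receptor construct cannot be told apart in this comparison.

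Read across the 5 groups, the members fell into a few orders of level. In Sbno2 and Etv3 the IL-22 group was highest, GFP-mCherry and mCherry-Fc followed without differing from each other, and the untreated groups came last without differing from each other. In Nfil3 and Bcl6 the IL-22 group was likewise on top, and the next 3 groups (mCherry-Fc, natural untreated and GFP-mCherry, in that order) did not differ between neighbours. Cebpd had natural untreated cells second, above mCherry-Fc by 0.19 (adjusted p = 0.0835). In Cebpa the order was GFP-mCherry, mCherry-Fc, natural untreated, synthetic untreated and IL-22. Of its neighbours, mCherry-Fc and natural untreated differed by 0.29 (adjusted p = 0.00817), and synthetic untreated and IL-22 cells by 0.029 (adjusted p = 0.872). In Cebpb and Maff the IL-22 group was highest and untreated synthetic cells lowest. In Cebpg mCherry-Fc and GFP-mCherry were on top, GFP-mCherry above IL-22 cells by 0.21 (adjusted p = 0.041). In Maf no neighbours differed.

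Without natural arrays 4 and 5 the order was as before in Cebpb, Cebpd, Maf and Etv3, but in Etv3 mCherry-Fc no longer differed from natural untreated cells (0.14, adjusted p = 0.0923). Untreated natural Nfil3 then averaged 8.35, below GFP-mCherry by 0.39 (adjusted p = 0.0023) and next to untreated synthetic cells. Untreated natural Bcl6 averaged 6.01 and came second, above mCherry-Fc by 0.17 (adjusted p = 0.449). In Cebpa IL-22 cells and untreated synthetic cells changed places, 0.030 apart (adjusted p = 0.88), and in Sbno2 both untreated groups averaged 8.38. Untreated natural cells came after GFP-mCherry in Cebpg and in Maff, and did not differ there from the groups next to them.

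The wider pathway was read from 6 gene lists, each described by its counts and its median beside that of all genes, which was -0.024 with IL-22, -0.042 with GFP-mCherry and -0.036 with mCherry-Fc. The counts stand against 11.4%, 26% and 26.9% of all genes called with those ligands, and 15.2% between the untreated lines. Those shares come from the fit of all 26 arrays, so they are no measure for counts without natural arrays 4 and 5. Of 29 STAT3 feedback and target genes, 23 rose and 0 fell with IL-22 (median 0.98), 18 rose and 0 fell with GFP-mCherry (median 0.45), and 16 rose and 2 fell with mCherry-Fc (median 0.27). With IL-22 the 3 with the smallest p were Socs3 (4.30), the IL-4 receptor chain Il4ra (3.89) and the stress gene Gadd45g (3.66). With GFP-mCherry they were the adhesion molecule Icam1 (1.45), Il4ra (1.13) and the kinase Pim1 (2.39), and with mCherry-Fc they were Myc (1.40), Pim1 (2.44) and Socs3 (0.94). Between the untreated lines 13 of the 29 were lower in synthetic cells and 0 higher (median -0.26, against 0.012 for all genes). Without natural arrays 4 and 5, 24 rose and 0 fell with IL-22 (median 1.11), and 7 were lower and 0 higher in untreated synthetic cells (median -0.092).

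Of 27 bZIP relatives and partners of the C/EBP and MAF proteins, 10 rose and 2 fell with IL-22, 8 rose and 2 fell with GFP-mCherry, and 11 rose and 1 fell with mCherry-Fc. Their medians were 0.050, -0.0006 and 0.13. With natural arrays 4 and 5 left out, 12 rose and 3 fell with IL-22. With IL-22 the AP-1 subunits Junb (1.69) and Fosl2 (1.37) and their relative Batf (1.06) led. Junb (0.75), Fosl1 (0.78) and Jun (0.42) led with GFP-mCherry. With mCherry-Fc it was Fosl1 (1.27), the small MAF gene Mafg (0.27) and Nfe2l2 (0.29), whose product pairs with small MAF proteins in the oxidant response.

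Of 29 C/EBP target genes of granulocytes, macrophages and the acute phase, 5 rose and 1 fell with IL-22, 4 rose and 1 fell with GFP-mCherry, and 4 rose and 5 fell with mCherry-Fc, with medians of 0.065, -0.040 and -0.077. The few that rose with IL-22 included Il6 (3.24), the acute phase gene Lbp (2.35) and Tnf (1.85). With GFP-mCherry, Tnf (1.96), Il6 (1.78) and haptoglobin, Hp (1.14), rose. With mCherry-Fc the leading calls were small: the granule protease Prtn3 (0.21), and falls in Trib1 (-0.21), whose product marks CEBPA for degradation, and Cxcl1 (-0.27). In untreated synthetic cells 9 of the 29 were lower than in natural cells and 1 was higher. Mpo and Lyz2, high on natural arrays 4 and 5, were among the 9. Without those arrays 6 were lower and 1 was higher, and with IL-22 4 rose and 0 fell.

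Of 16 measured clock genes and partners of NFIL3, 1 rose and 2 fell with IL-22, 3 rose and 1 fell with GFP-mCherry, and 4 rose and 1 fell with mCherry-Fc. The riser with IL-22 was Bhlhe40 (1.21), a clock repressor, and the falls were Nr1d2 (-0.49) and Arntl (-0.28). The period gene Per2 (0.60 and 0.72), the repressor Nr1d1 (0.63 and 0.64) and Cry1 (0.30 and 0.27) rose with GFP-mCherry and with mCherry-Fc, each pair in that order. The medians of this list were -0.079, 0.038 and 0.077. The difference of Arntl with IL-22 was -0.31 (adjusted p = 0.0828) without natural arrays 4 and 5, and that of Bhlhe40 was 1.81.

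Of 19 measured genes repressed by BCL6 or acting as its corepressors, 4 rose and 3 fell with IL-22, 4 rose and 3 fell with GFP-mCherry, and 2 rose and 3 fell with mCherry-Fc. The medians were -0.043, 0.0098 and -0.019. With IL-22 the cell cycle inhibitor Cdkn1b fell by 1.29 on the log2 scale, while Batf (1.06) and the corepressor Hdac4 (0.51) rose. With GFP-mCherry the cyclin Ccnd2 (0.37) and the corepressor Bcor (0.46) rose and the chemokine receptor Cxcr4 (-0.53) fell. With mCherry-Fc Ccnd2 (0.43) rose, and Cxcr4 (-0.47) and the corepressor Mta3 (-0.29) fell. Without natural arrays 4 and 5 the IL-22 counts were 3 up and 4 down (median -0.12).

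Of 20 ETS factors and relatives of SBNO2, 4 rose and 1 fell with IL-22, 6 rose and 1 fell with GFP-mCherry, and 5 rose and 3 fell with mCherry-Fc, with medians of 0.057, -0.057 and 0.027. With IL-22 the repressors Etv6 (0.74) and Erf (0.56), and the activator Elk1 (0.42), rose. The IL-22 counts were 5 up and 2 down without natural arrays 4 and 5. Etv5, an ETS activator downstream of ERK, rose with GFP-mCherry (1.15) and with mCherry-Fc (1.51), as did Ets2 (0.43 and 0.41) and Erf (0.57 and 0.36).

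Genes with the most similar pattern were sought for the 3 members that passed with at least 2 ligands and changed by at least 1 (log2) with one: Cebpd, Nfil3 and Sbno2. Likeness was the root mean square gap over 4 values, the 3 ligand differences and the difference between the untreated lines. Nearest to Sbno2 was Tgm1, a transglutaminase (gap 0.10), followed by Il17ra (0.17) and Siah1b (0.17). Tgm1 changed by 2.90 with IL-22, 0.36 with GFP-mCherry and 0.43 with mCherry-Fc. Nearest to Nfil3 was Lif, an IL-6 family cytokine (gap 0.16), with 1.98, 0.54 and 0.38 for the same ligands, then Tiparp (0.21) and B3gnt7 (0.24). Nearest to Cebpd were Pvr (0.099), Cyth4 (0.12) and Gpr171 (0.13), and Pvr changed by 1.33, 0.39 and 0.41. These neighbours depended on natural arrays 4 and 5. Without them 2 of the 3 recurred for Sbno2 (Tgm1 and Il17ra), 1 of 3 for Cebpd (Cyth4) and 0 of 3 for Nfil3, whose nearest gene was then Prag1 (gap 0.11).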

How the data were processed

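RNA was measured on 26 arrays, 1 colour each. Per the labels, the authors made the deposited log2 intensities with the core gene or exon analysis of Expression Console (Affymetrix Expression Console 4.0, per the submitters' processing notes). Background correction, normalization and genome build are not given in the sources used here. That the scale is log2 was read from the range, 1.79 to 14.31. Medians per array lay between 6.06 and 6.28. Array intensities have no counting depth, so the number of arrays limits the precision.

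Of 35556 probe sets, 21789 had 1 gene symbol, 1621 several and 12146 none, and 21698 were matched by Entrez identifier. For 999 genes with several probe sets the brightest was used, leaving 19938 genes. All 26 arrays in 5 groups, set by the titles, entered 1 limma fit (lmFit, then eBayes, version 3.58.1 under R 4.3.3), with two-sided tests, 95% intervals and Benjamini-Hochberg adjustment over 19938 genes at 0.05. The procedure was run on simulated data with independent noise and changes added to the IL-22 group. Rises of 0.5 and 1 were recovered in 82% and 98% of 50 genes each, and falls in 74% and 100%, with 14 false calls. The simulated arrays had no number ranges or pairs, so the run cannot show how the test behaves with them. RefSeq promoters (GRCm38.p6) were found for 8 of the 10 members.

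The members, lists, tests and the division by array number were chosen with earlier results of these data known, and leaving out natural arrays 4 and 5 together was added after the myeloid markers were seen (for the order of levels and the nearest patterns, after those results). Named genes are the members, the 3 genes of each list with the smallest p among those past the threshold with each ligand, and the 3 nearest patterns. Mpo and Lyz2 were named as markers. Residuals of same-numbered arrays correlated at 0.313 to 0.621 in natural cells (3 pairs) and 0.26 to 0.466 between mCherry-Fc and untreated cells (3 pairs). Between the 2 synthetic ligands it was 0.105 to 0.271 (3 pairs), and between GFP-mCherry and untreated cells -0.146 to 0.417 (6 pairs). Arrays with different numbers reached 0.362, 0.516, 0.311 and 0.373 in the same order. These values therefore do not separate pairing by number from the number range. The main fit paired no arrays, and the replicate number entered as a block in an alternative only. Alternatives were quantile normalization, median centring, all or averaged probe sets, a minimum mean of 6, another variance prior, array weights, separate fits, the replicate block, the number range as a batch term or within ranges, and leaving out each array. Each member had 1 probe set. The probe set settings and the minimum mean therefore could not move a member's difference, only its SE and adjusted p.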

Additional observations from a re-analysis of the deposited data

Results flagged for a closer look

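Of 50 sets of values (10 genes in 5 groups), 4 had an array far from the rest by Dixon's criterion, which chance alone gives in about 1 in 20, and all 4 were array 5 of a natural group. Cebpd was highest there with IL-22 (8.39, where the other 3 arrays lay at 8.26 to 8.28) and also untreated (7.13). Sbno2 with IL-22 was lowest there (10.89, where the others lay at 11.25 to 11.28), and so was Maf untreated (6.41). The same array number was high in myeloid markers in both groups; the part of this in the 4 values was not tested.

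The response through synthetic receptors differed from that to IL-22, by limma's test of the difference, in 6 of 10 genes for each synthetic ligand. Of all genes, 13.6% passed this test for GFP-mCherry and 13.4% for mCherry-Fc. For GFP-mCherry the gaps were 1.15 in Cebpa, -0.96 in Cebpd, -1.52 in Nfil3, -1.35 in Bcl6, -2.32 in Sbno2 and -0.55 in Etv3. For mCherry-Fc they were 1.06 in Cebpa, -0.93 in Cebpd, -1.34 in Nfil3, -1.26 in Bcl6, -2.35 in Sbno2 and -0.56 in Etv3. Of these 6 genes only Cebpa had opposite directions with IL-22 and with the synthetic ligands.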

How the results depend on the processing

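Of 70 member results 40 were called, and 24 of these kept their direction and call under every alternative run. 16 lost the call under at least 1, and 0 turned sign. With natural arrays 4 and 5 left out, the untreated lines differed in 1 member, against 4 in the main fit (3034 of all 19938 genes). They differed in 2 when only those groups were fitted (1722 of all genes) and 2 within low numbers (2347). Within high numbers they differed in more members than in the main fit, and in more of all genes. With IL-22 fewer members and fewer of all genes passed within high numbers, where that group had 1 array. The synthetic ligands differed in 1 member within low numbers, where 504 of all genes did. Leaving out 1 array at a time gave 8 to 8 calls with IL-22, 6 to 8 with GFP-mCherry, 7 to 9 with mCherry-Fc, 0 to 0 between these ligands, 6 to 7 and 6 to 6 for the gaps to IL-22, and 2 to 4 between untreated lines. Maff in the GFP-mCherry gap to IL-22 passed without IL-22 array 5, GFP-mCherry array 12 or untreated array 13, and Maf with GFP-mCherry without untreated array 12. The replicate block changed no call beyond Maff and Maf (0.34 and -0.16 with mCherry-Fc). No paired analysis was possible between the untreated lines because they share no number.

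Differences not called changed sign as follows. Maf in the GFP-mCherry gap to IL-22 became 0.0059 after quantile normalization and 0.0095 after centring. Cebpg between lines became -0.020 with array weights, and with natural arrays 4 and 5 left out Cebpg became -0.16 and Sbno2 -0.0011 there, and Cebpg with IL-22 -0.026. Between the synthetic ligands the replicate block gave -0.012 for Sbno2 and -0.0043 for Maf. Within low numbers these were Cebpg with IL-22 (-0.026), Maff with GFP-mCherry (-0.23), Cebpd and Bcl6 between synthetic ligands (0.056 and 0.035), and Cebpg, Sbno2 and Maff between lines (-0.24, -0.018 and 0.21). Within high numbers they were Sbno2, Maff, Maf and Etv3 between synthetic ligands (-0.0093, 0.066, -0.0021 and -0.016), Cebpb and Maff in the GFP-mCherry gap (0.10 and 0.17), Maff in the mCherry-Fc gap (0.10) and Etv3 between lines (0.010). Over single arrays left out, the ranges that crossed 0 were, between lines, -0.041 to 0.11 for Cebpg, -0.0083 to 0.039 for Sbno2 and -0.052 to 0.021 for Etv3, and between synthetic ligands -0.086 to 0.018 for Cebpd, -0.0031 to 0.045 for Sbno2 and -0.00099 to 0.060 for Maf. The causes were not tested.

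Counts over all genes moved more. IL-22 called 2277 genes, 1222 when only its groups were fitted and 759 within high numbers. mCherry-Fc called 5371, and 3234 after quantile normalization. Between synthetic ligands 218 became 478 with array weights, 460 with only those groups, 100 with the replicate block, 469 with the range as a batch term and 504 within low numbers. The gaps called 2718 and 2664, against 4153 and 4279 with the range as a batch term, 4583 and 4253 within low numbers, and 916 and 872 within high numbers. Untreated lines differed in 3034 genes, 1722 with only those groups, 5750 within high numbers and 1875 with natural arrays 4 and 5 left out.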
